A study of Homo sapiens with 21 samples.

Results

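The comparison set HEY cells 24 h after transfection with mir-429 against HEY cells before any transfection. HEY is an established human ovarian cancer cell line. The groups were chosen by their labels alone, as the 3 arrays of cells given mir-429 and sampled at 24 h and the 3 arrays of cells sampled at 0 h, which makes 6 of the 21 arrays of the series. A further pair of groups was used beside them, the 3 arrays of cells given a synthetic negative control miRNA and sampled at 24 h, and the 3 arrays of cells given mir-429 and sampled at 144 h. All cells were grown in the same serum-containing medium. The transfected groups received their miRNA with the lipid reagent Lipofectamine 2000, and the cells at 0 h received neither reagent nor miRNA. A difference from the 0 h cells therefore holds the effects of the lipid reagent, of a small RNA, of mir-429 itself and of 24 h more in culture, and the comparison by itself cannot tell these apart. No untransfected cells at 24 h were analysed here. The arrays of the control miRNA share the reagent and the time, so the direct difference between mir-429 and control at 24 h is given beside many of the genes.

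MiR-429 belongs to the miR-200 family of microRNAs, which are abundant in epithelial cells and bind the mRNAs of ZEB1 and ZEB2. ZEB1 and ZEB2 are repressors that sit on E-box motifs of epithelial genes such as CDH1 (E-cadherin), and they in turn repress the miR-200 genes. Cells with much ZEB and little miR-200 are typically mesenchymal in shape and expression. NRF2, encoded by NFE2L2, is held back by KEAP1 and, when released under oxidative or electrophilic stress, switches on genes for glutathione synthesis, quinone reduction and thioredoxin recycling.

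The mature sequences of the family are shown because the seed, which pairs with the target mRNA, divides it into subfamilies. They were read from RefSeq with coordinates on GRCh38.p14, and capitals mark the seed, bases 2 to 8. MiR-429 (chr1:1169055-1169076, plus strand) shares its seed with miR-200b-3p (chr1:1167160-1167181, plus strand) and miR-200c-3p (chr12:6963742-6963764, plus strand). Counted from 1 at the 5′ end, miR-141-3p (chr12:6964155-6964176, plus strand) has the seed substitution U4C relative to miR-429, and miR-200a-3p (chr1:1167916-1167937, plus strand) carries the same seed as miR-141-3p. The level of mature miR-429 in the cells was not analysed here.
hsa-miR-429: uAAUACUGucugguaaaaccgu
hsa-miR-200b-3p: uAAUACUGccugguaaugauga
hsa-miR-200c-3p: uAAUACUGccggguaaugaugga
hsa-miR-200a-3p: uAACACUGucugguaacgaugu
hsa-miR-141-3p: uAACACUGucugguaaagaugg

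Values are log2 expression per probe set, and a gene was represented by its brightest probe set. Of 19775 genes, 12879 lay above the array median on at least 3 of the 21 arrays and were tested with limma. The replicates are labelled biological, with nothing on separate cultures. P-values therefore reflect only how far these samples spread. Total RNA was amplified with a kit that primes at the 3′ end. The signal at the 3′ end minus that at the 5′ end (GAPDH and ACTB control probe sets), which grows as transcripts lose their 5′ part, averaged 2.87 ± 0.36 (SD, n = 3) on the mir-429 arrays and 3.15 ± 0.53 on the untransfected arrays (exact permutation p = 0.6, two-sided, where the smallest that 3 against 3 allows is 0.1). On the control arrays at 24 h it was 4.21 ± 0.21, which lay 1.06 above untransfected and 1.34 above mir-429 (exact permutation p = 0.1 for each). Array medians ran from 3.95 to 4.29.

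In mir-429 cells at 24 h, 2966 of 12879 genes (23.0%) differed from untransfected cells at a limma adjusted p under 0.05, 1513 of them higher (11.7%) and 1453 lower (11.3%). A change of at least 2-fold was seen in 143 of the higher and 302 of the lower genes. In 2921 of the 2966 genes the 3 mir-429 values did not overlap the 3 untransfected values. With 3 arrays a group this largely follows from the calls and adds no support to them. The share without overlap among all genes was not counted. The median change over all genes tested was 0.04 (log2) and the median SE was 0.15. With limma's array weights the count rose to 6059, among them 2963 of the 2966 genes. Control cells at 24 h differed from the same untransfected arrays in 4897 genes (38.0%), 2352 higher (18.3%) and 2545 lower (19.8%), and in 2118 genes with the 3′ minus 5′ signal as a covariate. These counts share the untransfected arrays and are not independent of each other. The direct comparison of mir-429 with control cells at 24 h called 3425 genes (26.6%), 1937 higher (15%) and 1488 lower (11.6%), and this count was 614 with the 3′ minus 5′ signal as a covariate. It was 2148 without the control array of replicate 3 and 2249 without the mir-429 array of replicate 1. The count against untransfected cells was 2984 with the same covariate. The shares of genes higher and lower given here are the background for the gene lists, 11.7% and 11.3% for mir-429, 18.3% and 19.8% for control, and 15% and 11.6% for the direct comparison.

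Most tested genes described as targets of the miR-200 family were lower in mir-429 cells. Like the other lists, this one was chosen with earlier results of these data known, so its shares are not independent of them. Of 60 genes on the list, 54 were tested, 32 were lower (59.3%, against 11.3% of all genes) and 1 was higher, with a median of -0.59. In control cells 27 of the 54 were lower and 1 higher against untransfected, with a median of -0.34, against 19.8% of all genes lower. Between mir-429 and control cells at 24 h, 19 were lower (35.2%, against 11.6% of all genes) and 3 higher (5.56%, against 15%), with a median of -0.25. In such bulk RNA, fewer cells that express a gene and less of its RNA in each cell cannot be told apart.

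The first members are the ZEB repressors. ZEB1 read 10.83, 11.10 and 11.14 on the untransfected arrays and 9.38, 8.85 and 8.91 on the mir-429 arrays. The mir-429 values all lay below the untransfected ones, and the level was 3.93-fold lower (-1.97 ± 0.15, SE, limma adjusted p = 3.14e-08). On the control arrays ZEB1 read 10.59, 10.32 and 10.11, between both groups, at -0.68 ± 0.15 from untransfected (adjusted p = 0.00142), and mir-429 lay at -1.29 ± 0.15 from control (adjusted p = 6.5e-06). ZEB2 read 8.75, 8.76 and 8.68 on the untransfected arrays and 6.88, 6.40 and 6.58 on the mir-429 arrays, without overlap, a difference of -2.11 ± 0.18 (adjusted p = 1.68e-07). The control arrays read 7.18, 7.41 and 6.56 and overlapped the mir-429 arrays. Control cells were thus at -1.68 ± 0.18 from untransfected (adjusted p = 2.89e-06), and the direct difference between mir-429 and control was -0.43 ± 0.18 and did not pass (adjusted p = 0.0893). Ranges over probe sets, here and below, cover only those above the array median on most of the 21 arrays. Such probe sets of ZEB2 disagreed, with differences between -2.49 and 0.12 from untransfected to mir-429 cells. Those of ZEB1 lay between -1.97 and -1.37.

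Several cytoskeletal and matrix targets lay well below the control level too. WIPF1, a partner of the WASP actin regulators, read 8.86, 8.95 and 8.85 on the untransfected, 8.45, 8.44 and 8.33 on the control and 6.64, 6.17 and 6.01 on the mir-429 arrays. The 3 groups did not overlap, and the control values lay close under the untransfected ones (-0.48 ± 0.13, adjusted p = 0.00633). The mir-429 difference was -2.61 ± 0.13 from untransfected (adjusted p = 1.61e-10) and -2.13 ± 0.13 from control (adjusted p = 6.51e-09), although 1 of its 4 probe sets showed a difference of only -0.09. FN1, the matrix protein fibronectin, read 11.54, 11.30 and 11.32 on the untransfected and 9.23, 9.58 and 9.26 on the mir-429 arrays. It was 4.09-fold lower (-2.03 ± 0.12, adjusted p = 1.38e-09), and control cells were at -0.33 ± 0.12 (adjusted p = 0.0358). The probe sets of FN1 ran from -2.11 to -0.42 between untransfected and mir-429 cells. CFL2, a cofilin that severs actin filaments, read 11.10, 11.05 and 10.96 on the untransfected, 9.95, 10.30 and 9.88 on the control and 9.15, 8.66 and 8.58 on the mir-429 arrays. The 3 groups did not overlap, and the steps were -1.0 ± 0.16 from untransfected to control (adjusted p = 0.000141) and -1.24 ± 0.16 from control to mir-429 (adjusted p = 2.62e-05).

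LOX, which cross-links collagen, moved in opposite directions in the transfected arms. It read 6.95, 7.08 and 7.03 on the untransfected, 7.49, 7.77 and 7.20 on the control and 5.65, 5.37 and 5.17 on the mir-429 arrays, so that control lay above and mir-429 below. The changes from untransfected were 0.47 ± 0.13 in control (adjusted p = 0.00986) and -1.62 ± 0.13 in mir-429 cells (adjusted p = 1.05e-07), and the direct difference was -2.09 ± 0.13 (adjusted p = 9.36e-09). Another of its 3 probe sets showed a difference of 0.41 from untransfected to mir-429. The phosphatase PPM1F, the signalling phospholipase PLCG1 and the chemokine CXCL8 fell by 1.42 ± 0.14, 1.07 ± 0.14 and 1.22 ± 0.15 from untransfected (adjusted p = 7.54e-07, 1.63e-05 and 1.35e-05). None of these 3 genes passed the test in control cells, where the values were 0.30 ± 0.14, 0.03 ± 0.14 and -0.08 ± 0.15. Other members were about as low with the control miRNA. WASF3, an actin nucleation factor, was at -1.56 ± 0.19 in mir-429 and -1.37 ± 0.19 in control cells, and the direct difference was -0.19 ± 0.19 (adjusted p = 0.509). For MAML3, a Notch coactivator, the values were -1.36 ± 0.16 and -1.10 ± 0.16, with a direct difference of -0.25 ± 0.16 (adjusted p = 0.254). The member that rose was JAG1, a Notch ligand, at 0.65 ± 0.17 from untransfected (adjusted p = 0.00834) and -0.11 ± 0.17 in control cells, although its probe sets ran from -0.01 to 0.66. Whether the mRNAs carry seed matches was not analysed here.

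Among further members past the threshold, MARCKS, which tethers actin to the membrane, read 11.45, 11.96 and 11.91 on the untransfected, 11.11, 10.51 and 11.06 on the control and 10.52, 9.87 and 9.65 on the mir-429 arrays. The change was -1.76 ± 0.20 from untransfected (adjusted p = 4.06e-06) and the direct difference -0.88 ± 0.20 (adjusted p = 0.00303). SEC23A, part of the COPII vesicle coat, was at -1.65 ± 0.18 from untransfected (adjusted p = 2.57e-06) and -0.98 ± 0.18 from control (adjusted p = 0.000604). LHFPL6, a tetraspan membrane protein, was at -1.63 ± 0.11 from untransfected (adjusted p = 1.98e-08) and -0.39 ± 0.11 in control cells (adjusted p = 0.0127). QKI, an RNA-binding regulator of splicing, was at -1.40 ± 0.14 (adjusted p = 9.8e-07), and its probe sets ranged from -3.20 to -0.17. For the kinase HIPK3 the change was -1.43 ± 0.11 (adjusted p = 7.53e-08), with probe sets on both sides of 0, from -1.43 to 0.89.

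**Figure D1:**
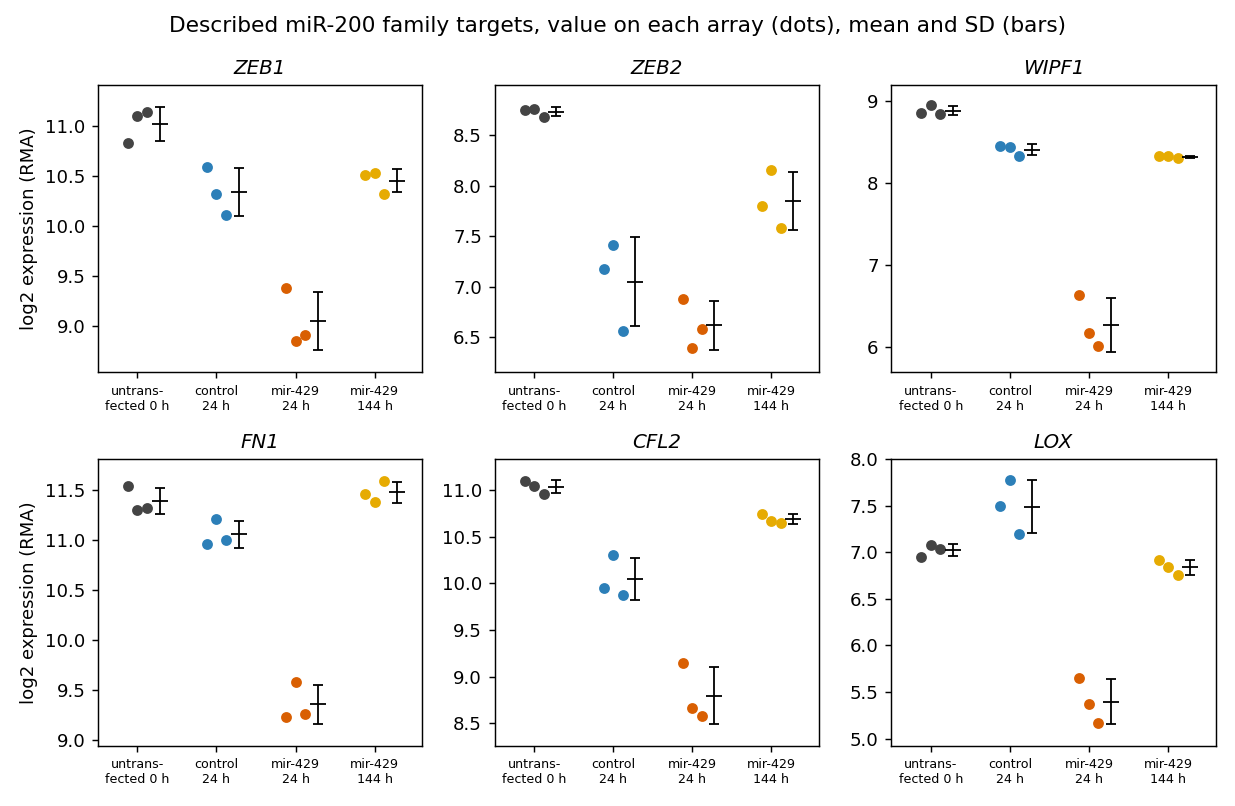
Log2 expression on each array (dots) with the mean and SD of 3 arrays (bars) for ZEB1, ZEB2, WIPF1, FN1, CFL2 and LOX in untransfected cells at 0 h, control and mir-429 cells at 24 h and mir-429 cells at 144 h. The mir-429 24 h dots lie below the untransfected dots in every panel, the control dots of ZEB2 overlap those of mir-429, and the control dots of LOX lie above the untransfected ones.

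A part of the epithelial genes rose. Of 62 genes on the list, 56 had a probe set and 31 were tested; 8 were higher in mir-429 than in untransfected cells (25.8%, against 11.7% of all genes), 3 were lower, and the median was 0.08. In control cells 1 was higher (3.23%, against 18.3% of all genes) and 10 were lower (32.3%, against 19.8%), with a median of -0.33. In the direct comparison 17 were higher than in control cells (54.8%, against 15% of all genes) and 1 was lower (3.23%, against 11.6%), with a median of 0.48. For this and every other list, the control and direct counts were not repeated with the 3′ minus 5′ covariate. High values in 1 group alone let a gene through the filter, so the 31 do not stand for the whole list. Without the mir-429 array of replicate 3, or the untransfected array of replicate 3, 1 member was lower in place of 3. With a filter at the 75th percentile 5 members were higher.

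CDS1, which makes CDP-diacylglycerol for phospholipid synthesis, read 4.24, 4.06 and 4.01 on the untransfected, 3.24, 4.33 and 3.56 on the control and 6.77, 6.74 and 6.69 on the mir-429 arrays. Its untransfected mean lay below the array medians, and mir-429 cells were higher by at least 2.47 (adjusted p = 1.12e-05). MAP7, a microtubule-binding protein, read 5.43, 5.36 and 5.28 on the untransfected and 7.33, 6.87 and 7.31 on the mir-429 arrays, without overlap. It was 3.53-fold higher (1.82 ± 0.23, adjusted p = 1.35e-05), while control cells were at -0.34 ± 0.23 (adjusted p = 0.259). PKP2 and PKP3 are plakophilins, which anchor desmosomes to the cytoskeleton. PKP2 read 6.59, 6.84 and 6.69 on the untransfected and 8.14, 8.17 and 7.93 on the mir-429 arrays (1.37 ± 0.21, adjusted p = 0.000123). PKP3 read 5.43, 5.42 and 5.26 and 6.55, 6.98 and 6.67 on the same arrays (1.36 ± 0.26, adjusted p = 0.000751). Both were higher on every mir-429 array than on any untransfected one. The protease inhibitor SPINT2 was at 0.94 ± 0.22 (adjusted p = 0.0049), the polarity protein PATJ at 0.78 ± 0.13 (adjusted p = 0.000297) and the desmosomal linker DSP at 0.66 ± 0.12 (adjusted p = 0.000462). In control cells DSP was at -0.54 ± 0.12 from untransfected (adjusted p = 0.00173), on the other side. The tight junction protein CLDN1 was the eighth member called higher, at 0.31 ± 0.11 (adjusted p = 0.0496).

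Against the rest of the list, SH3YL1, which binds phosphoinositides, fell by 1.78 ± 0.15 (adjusted p = 1.25e-07) and read 7.44, 7.26 and 7.25 on the untransfected and 5.35, 5.55 and 5.70 on the mir-429 arrays. It was at -0.75 ± 0.15 in control cells (adjusted p = 0.000766), and mir-429 lay a further -1.03 ± 0.15 from control (adjusted p = 8.17e-05). ESRP1, a splicing factor of epithelial cells, read 6.22, 6.47 and 6.36 on the untransfected and 6.72, 6.40 and 6.82 on the mir-429 arrays, which overlapped, and its difference of 0.30 ± 0.13 did not pass (adjusted p = 0.113). Without the mir-429 array of replicate 2 it was 0.42 (adjusted p = 0.0416), and with array weights 0.27 (adjusted p = 0.0357). Control cells were at -0.63 ± 0.13 (adjusted p = 0.00125) and mir-429 at 0.93 ± 0.13 from control (adjusted p = 6.98e-05). CDH1 read 2.90, 2.29 and 3.17 on the untransfected and 3.27, 3.35 and 3.29 on the mir-429 arrays, and EPCAM, an epithelial adhesion molecule, read 2.27, 2.17 and 1.90 and 2.20, 2.12 and 2.67. Both lay below the array medians in these groups and were too dim to test. The keratin genes KRT7, KRT8 and KRT18 were at 0.00 ± 0.17, -0.04 ± 0.22 and -0.02 ± 0.14, and none passed.

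**Figure D2:**
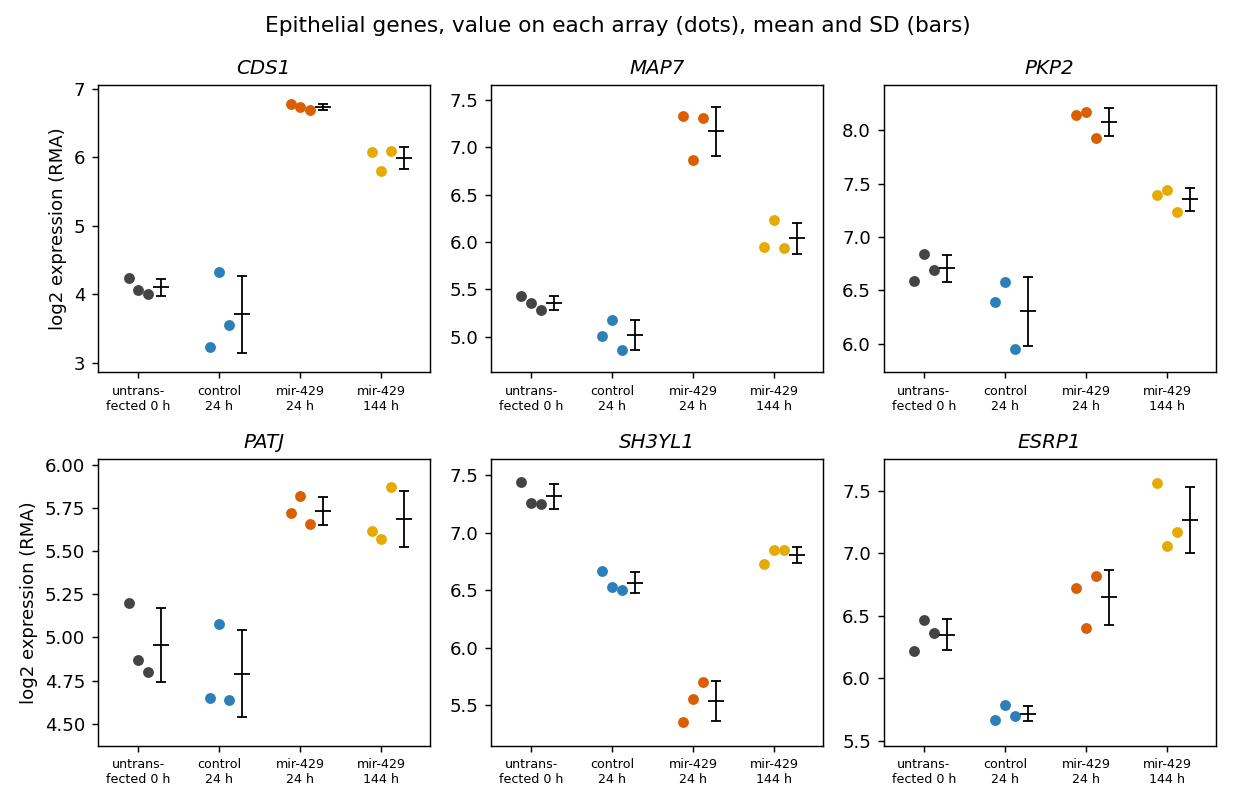
Log2 expression on each array (dots) with the mean and SD of 3 arrays (bars) for CDS1, MAP7, PKP2, PATJ, SH3YL1 and ESRP1 in the 4 groups. The mir-429 24 h dots of CDS1, MAP7, PKP2 and PATJ lie above the untransfected dots, those of SH3YL1 lie below, and those of ESRP1 overlap them.

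Promoters of CDS1 and MAP7, whose rises were described first, are shown because ZEB proteins bind the E-box CAGGTG. The 250 bases before each start were searched for CAGGTG on both strands (CACCTG on the strand printed), and capitals mark the matches. Matches were found in 17.5% of all 35116 RefSeq promoters of this length. Of the 62 epithelial genes 34 had a promoter in the set searched, and the rest were not searched. These 34 had 55 promoters, of which 26 (47.3%) held the motif, in 23 genes. A match describes the letters and does not show binding. The CDS1 promoter (GRCh38.p14, chr4:84582877-84583126, plus strand) held 1 match. RefSeq gives 4 promoters for MAP7, of which 1 (chr6:136550423-136550672, minus strand) held 2 matches and is printed, and the others held 0. The motif was not limited to genes that rose: SH3YL1, which fell, had promoters with 3 matches and with 1.
CDS1: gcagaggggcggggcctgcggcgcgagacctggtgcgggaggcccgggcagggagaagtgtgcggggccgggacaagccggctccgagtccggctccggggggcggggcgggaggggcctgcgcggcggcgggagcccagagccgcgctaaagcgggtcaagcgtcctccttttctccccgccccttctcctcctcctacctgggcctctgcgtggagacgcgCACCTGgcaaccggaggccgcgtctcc
MAP7: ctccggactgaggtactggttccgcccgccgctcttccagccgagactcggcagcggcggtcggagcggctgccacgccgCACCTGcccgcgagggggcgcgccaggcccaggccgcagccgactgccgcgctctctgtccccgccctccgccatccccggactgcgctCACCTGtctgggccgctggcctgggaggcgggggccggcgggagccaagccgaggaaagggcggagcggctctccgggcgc

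Some mesenchymal genes fell, while the share of higher members was near that of all genes. Of 38 tested members 10 were lower (26.3%, against 11.3% of all genes) and 5 higher (13.2%, against 11.7%), with a median of 0.03. In control cells 13 were lower (34.2%, against 19.8%) and 8 higher (21.1%, against 18.3%). Without the mir-429 array of replicate 3 the count of higher members was 2, and it was 3 without the mir-429 array of replicate 2, or the untransfected array of replicate 2 or 3. FAP, a cell surface protease of activated fibroblasts, read 8.30, 7.96 and 8.33 on the untransfected, 6.47, 7.02 and 6.40 on the control and 6.07, 5.93 and 6.13 on the mir-429 arrays, in that falling order without overlap. It was 4.44-fold lower in mir-429 than in untransfected cells (-2.15 ± 0.16, adjusted p = 4.82e-08). COL1A1, a chain of type I collagen, was at -0.91 ± 0.15 (adjusted p = 0.000257), with its probe sets between -0.91 and 0.05, and the matrix protein TNC at -0.70 ± 0.13 (adjusted p = 0.000568). VIM, the intermediate filament vimentin, read 12.93, 13.10 and 13.18 on the untransfected and 12.95, 13.05 and 13.04 on the mir-429 arrays. Its difference of -0.05 ± 0.11 did not pass (adjusted p = 0.781), but with the mean of its probe sets it was -0.37 (adjusted p = 0.00806). CDH2, or N-cadherin, was at 0.00 ± 0.09 (adjusted p = 0.988), and at 0.30 with the mean of its probe sets (adjusted p = 0.0372).

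Of 54 tested actin and motility genes 9 were lower (16.7%, against 11.3% of all genes) and 3 higher (5.56%, against 11.7%). In control cells 15 were lower (27.8%, against 19.8%) and 1 higher (1.85%, against 18.3%). Without the mir-429 array of replicate 2, 1 member was higher in place of 3. WIPF1, CFL2 and WASF3, described above as miR-200 targets, are members of this list too. FSCN1, which bundles actin filaments, fell by 1.46 ± 0.24 (adjusted p = 0.00019) and was at -0.87 ± 0.24 in control cells (adjusted p = 0.00759). Its other probe set was at -0.32 in mir-429 cells.

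NRF2 genes showed the largest share of higher members among the lists. Of 32 genes 29 had a probe set and 26 were tested, 20 were higher in mir-429 than in untransfected cells (76.9%, against 11.7% of all genes) and 0 lower, with a median of 0.62. Control cells had 22 of the 26 higher and 0 lower, with a median of 0.75, against 18.3% of all genes higher. Between mir-429 and control cells 4 were higher (15.4%, against 15% of all genes) and 3 lower (11.5%, against 11.6%), near the shares of all genes. The median was -0.02, and 19 did not pass.

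The aldo-keto reductases AKR1C1, AKR1C2 and AKR1C3 reduce ketosteroids and reactive aldehydes. AKR1C1 read 7.27, 7.25 and 7.16 on the untransfected, 10.46, 10.35 and 10.73 on the control and 9.96, 10.01 and 10.26 on the mir-429 arrays. It was 7.22-fold higher in mir-429 cells (2.85 ± 0.11, adjusted p = 9.82e-12) and mir-429 lay at -0.44 ± 0.11 from control (adjusted p = 0.00737). AKR1C2 was 4.66-fold and AKR1C3 2.77-fold higher than in untransfected cells (adjusted p = 1.15e-06 and 8.14e-08). These genes are near-identical copies, so probes of one may read another, and the probe sets of AKR1C1 ranged from 0.78 to 2.85. Quinone reductase NQO1 read 11.76, 11.85 and 11.74 on the untransfected, 12.73, 12.65 and 12.64 on the control and 12.77, 12.80 and 12.79 on the mir-429 arrays. Both transfected groups lay above all untransfected values (1.0 ± 0.08 for mir-429, adjusted p = 1.24e-07), and the direct difference of 0.12 ± 0.08 did not pass (adjusted p = 0.32). SRXN1, which restores oxidised peroxiredoxins, read 8.43, 8.36 and 8.36 on the untransfected and 9.59, 9.87 and 9.84 on the mir-429 arrays (1.38 ± 0.11, adjusted p = 6.2e-08). GSR, glutathione reductase, was at 1.04 ± 0.09 (adjusted p = 2.46e-07) and in control cells at 0.98 ± 0.09 (adjusted p = 8.17e-07).

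SLC7A11, which imports cystine, read 9.39, 9.39 and 9.37 on the untransfected, 10.28, 10.58 and 10.23 on the control and 10.99, 11.01 and 10.96 on the mir-429 arrays, a rising order without overlap. It was at 1.60 ± 0.14 from untransfected (adjusted p = 1.88e-07) and at 0.63 ± 0.14 from control (adjusted p = 0.00292). The catalytic and modifier subunits of glutamate-cysteine ligase, GCLC and GCLM, were at 0.82 ± 0.11 and 0.82 ± 0.14 (adjusted p = 3.62e-05 and 0.00037). NFE2L2, which encodes NRF2, was at 0.45 ± 0.14 in mir-429 cells (adjusted p = 0.0228) and at -0.11 ± 0.14 in control cells (adjusted p = 0.556). SQSTM1, an autophagy receptor that binds KEAP1, was at 1.26 ± 0.13 (adjusted p = 1.18e-06), but its probe sets ran from -0.86 to 1.26. The mean of all 5 gave 0.11 (adjusted p = 0.553).

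Further members past the threshold were OSGIN1, an oxidative stress growth inhibitor, at 1.62 ± 0.22 (adjusted p = 3.12e-05) and thioredoxin reductase TXNRD1 at 0.55 ± 0.09 (adjusted p = 0.000356). KEAP1, the inhibitor of NRF2, was at 0.55 ± 0.15 (adjusted p = 0.013) and in control cells at 0.40 ± 0.15 (adjusted p = 0.0473). ME1, a malic enzyme that supplies NADPH, was at 0.68 ± 0.09 (adjusted p = 1.41e-05), while another of its probe sets was at -0.13.

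HMOX1, the oxygenase that degrades heme, set the arms apart within this list. It read 6.42, 6.26 and 5.96 on the untransfected, 9.64, 9.89 and 10.19 on the control and 7.22, 7.38 and 7.40 on the mir-429 arrays, so the 3 groups did not overlap and control was highest. The change from untransfected was 3.70 ± 0.23 in control (adjusted p = 1.31e-08) and 1.12 ± 0.23 in mir-429 cells (adjusted p = 0.00187), and the direct difference was -2.58 ± 0.23 (adjusted p = 5.61e-07).

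**Figure D3:**
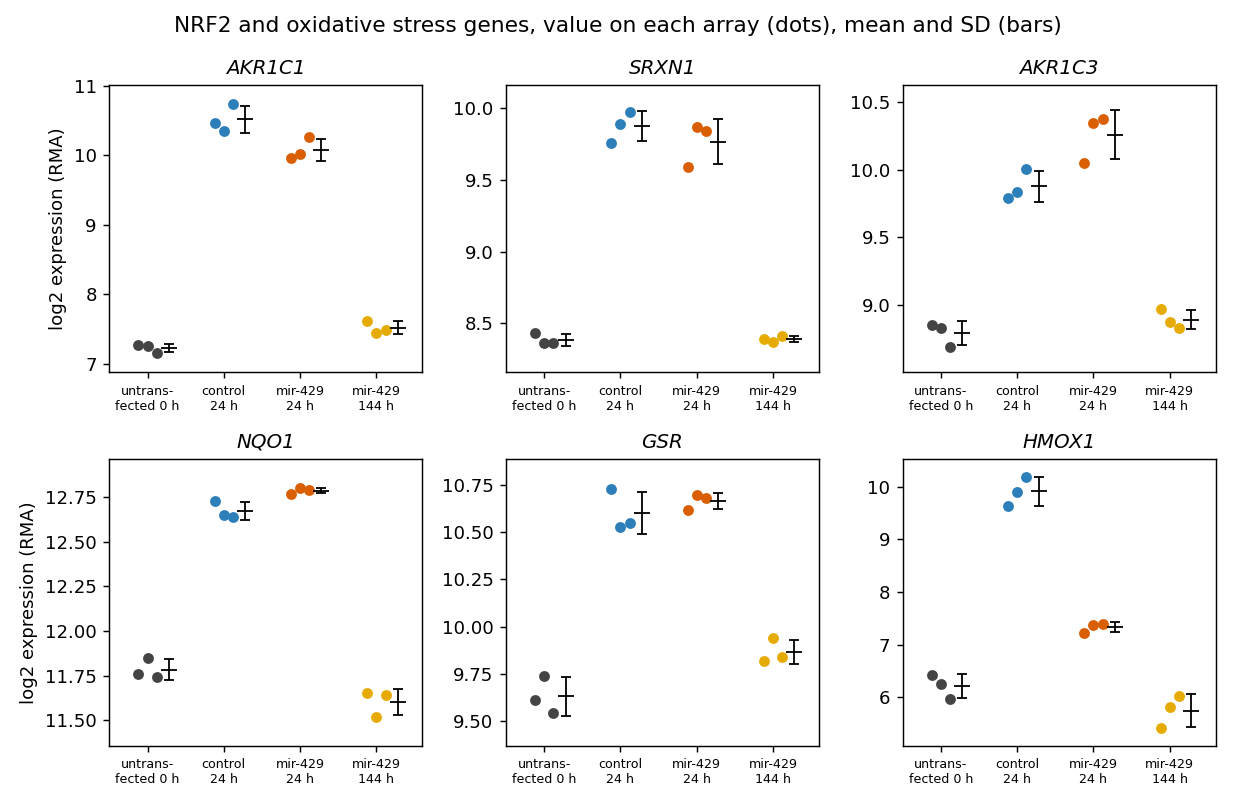
Log2 expression on each array (dots) with the mean and SD of 3 arrays (bars) for AKR1C1, SRXN1, AKR1C3, NQO1, GSR and HMOX1 in the 4 groups. Both transfected groups at 24 h lie above the untransfected dots in every panel, and the HMOX1 control dots lie above the mir-429 dots.

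The GCLM promoter is shown because NRF2 binds antioxidant response elements, written here as TGACNNNGC and searched on both strands in the 250 bases before each start. A match can include TGACTCA, the letters that AP-1 factors bind. Matches were found in 10.9% of all 35116 promoters. Of the 32 NRF2 genes 24 had a promoter in the set searched, and the rest were not searched. These 24 had 31 promoters, of which 8 (25.8%) held the motif, in 7 genes. GCLM (GRCh38.p14, chr1:93909431-93909680, minus strand) held 1 match, in capitals and on the strand opposite to the one printed, which again describes letters and not binding.
GCLM: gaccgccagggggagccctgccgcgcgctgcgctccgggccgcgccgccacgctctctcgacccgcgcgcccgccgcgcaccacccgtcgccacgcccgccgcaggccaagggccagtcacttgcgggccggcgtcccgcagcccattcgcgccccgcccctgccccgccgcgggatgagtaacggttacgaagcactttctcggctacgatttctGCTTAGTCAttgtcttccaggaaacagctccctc

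Parts of other stress lists were higher. Of 45 tested genes of the unfolded protein response and of amino acid stress, 13 were higher (28.9%, against 11.7% of all genes) and 0 lower, with a median of 0.23. In control cells 19 were higher (42.2%, against 18.3%) and 5 lower (11.1%, against 19.8%). ATF3, a stress-induced transcription factor, read 6.0, 5.85 and 5.70 on the untransfected and 7.20, 7.33 and 7.37 on the mir-429 arrays, without overlap (1.45 ± 0.12, adjusted p = 1.22e-07). It was at 1.06 ± 0.12 in control cells (adjusted p = 5.13e-06). SLC7A5, a transporter of large amino acids, was at 0.92 ± 0.14 (adjusted p = 0.000109), and CRELD2, made in the endoplasmic reticulum under stress, at 0.79 ± 0.15 (adjusted p = 0.00076). ATF4, which drives amino acid stress genes, was at -0.02 ± 0.08 and HSPA5, the main chaperone of the endoplasmic reticulum, at 0.23 ± 0.09; neither passed. Of 8 tested metallothionein and zinc genes 3 were higher (37.5%, against 11.7% of all genes) and 0 lower in mir-429 cells. Control cells also had 3 higher (37.5%, against 18.3%) and 0 lower, but these were not all the same genes. The zinc exporter SLC30A1 read 8.22, 8.31 and 8.31 on the untransfected, 8.81, 8.88 and 8.64 on the control and 9.90, 9.52 and 9.53 on the mir-429 arrays, again in rising order. Its change was 1.37 ± 0.15 (adjusted p = 2.29e-06). MT1E, a zinc-binding metallothionein with near-identical relatives, was at 0.43 ± 0.09 (adjusted p = 0.00259). Of 43 tested lysosome and autophagy genes 13 were higher (30.2%, against 11.7% of all genes) and 3 lower (6.98%, against 11.3%). Among the lower ones OSTM1, a subunit partner of a lysosomal chloride transporter, read 10.22, 10.30 and 10.12 on the untransfected, 10.17, 10.63 and 9.88 on the control and 8.41, 7.98 and 8.0 on the mir-429 arrays. Control overlapped untransfected (0.01 ± 0.15, adjusted p = 0.962) and mir-429 lay below both (-2.08 ± 0.15 from untransfected, adjusted p = 3.09e-08).

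A part of the lipid synthesis genes fell. Of 19 tested cholesterol synthesis genes 6 were lower (31.6%, against 11.3% of all genes) and 0 higher, with a median of -0.27. In control cells 10 were lower (52.6%, against 19.8%) and 0 higher. INSIG1, which restrains sterol synthesis and is itself induced by low sterol, read 11.18, 11.28 and 11.31 on the untransfected and 10.24, 9.94 and 9.85 on the mir-429 arrays (-1.24 ± 0.13, adjusted p = 2.4e-06). MSMO1, a sterol demethylase, was at -1.0 ± 0.11 (adjusted p = 4.15e-06) and SREBF2, the transcription factor of the pathway, at -0.53 ± 0.12 (adjusted p = 0.00431). SREBF2 in control cells was at -0.07 ± 0.12 (adjusted p = 0.671) and mir-429 lay at -0.45 ± 0.12 from control (adjusted p = 0.0106). HMGCS1, an early enzyme of the pathway, was at -0.08 ± 0.18 in mir-429 cells (adjusted p = 0.79) and at -0.93 ± 0.18 in control cells (adjusted p = 0.000554), and the direct difference was 0.85 ± 0.18 (adjusted p = 0.00182). Of 14 tested fatty acid synthesis genes 5 were lower (35.7%, against 11.3% of all genes) and 1 higher (7.14%, against 11.7%). FASN, fatty acid synthase, was at -0.81 ± 0.23 (adjusted p = 0.0153), with its other probe set at 0.22, and in control cells at -1.51 ± 0.23 (adjusted p = 9.09e-05), and its change was -0.76 (adjusted p = 0.0581) without the mir-429 array of replicate 3 and -0.73 (adjusted p = 0.0669) without the untransfected array of replicate 3. The desaturase SCD read 12.86, 12.88 and 12.82 on the untransfected, 11.91, 12.22 and 11.56 on the control and 11.29, 11.05 and 11.25 on the mir-429 arrays, a falling order without overlap. It was 3.15-fold lower in mir-429 than in untransfected cells (-1.66 ± 0.16, adjusted p = 6.84e-07). The fatty acid count depended on single arrays, with 2 members lower without the mir-429 array of replicate 2 or the untransfected array of replicate 1, and 3 without the mir-429 array of replicate 1 or 3 or the untransfected array of replicate 3.

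Inflammatory genes split. Of 32 tested NF-kB list members 9 were higher (28.1%, against 11.7% of all genes) and 8 lower (25.0%, against 11.3%), with a median of 0.17. In control cells 15 were higher (46.9%, against 18.3%) and 6 lower (18.8%, against 19.8%). Cytokine genes were among the lower ones. IL1B, interleukin 1 beta, read 9.27, 9.30 and 9.47 on the untransfected, 7.29, 7.53 and 7.46 on the control and 5.93, 5.90 and 5.70 on the mir-429 arrays. The 3 groups formed separate steps, and mir-429 cells were 11.3-fold below untransfected (-3.50 ± 0.13, adjusted p = 6.89e-12). Control cells were at -1.92 ± 0.13 (adjusted p = 2.38e-08) and mir-429 at -1.59 ± 0.13 from control (adjusted p = 1.71e-07). BCL2A1, which blocks apoptosis, read 9.81, 9.78 and 9.70 on the untransfected, 10.06, 9.41 and 10.21 on the control and 7.85, 7.43 and 7.5 on the mir-429 arrays. The control values overlapped the untransfected ones, and the mir-429 values lay below all of them (-2.17 ± 0.19 from untransfected, adjusted p = 1.68e-07). TNF was at -1.06 ± 0.20 (adjusted p = 0.000815) and IL1A at -0.68 ± 0.16 (adjusted p = 0.00396). The higher members included NFKBIA, the inhibitor that holds NF-kB in the cytoplasm, at 0.99 ± 0.14 (adjusted p = 3.61e-05), the ubiquitin ligase BIRC2 at 0.90 ± 0.11 (adjusted p = 1.13e-05) and the secreted pattern recognition protein PTX3 at 1.21 ± 0.11 (adjusted p = 3.68e-07). CSF3, a granulocyte growth factor, fell by 0.42 ± 0.12 in mir-429 cells (adjusted p = 0.0154) but was at 0.80 ± 0.12 in control cells (adjusted p = 6.31e-05).

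Interferon response genes gave 5 higher (11.9%) and 6 lower (14.3%) of 42 tested, close to the shares among all genes (11.7% and 11.3%). In control cells 14 were higher (33.3%, against 18.3% of all genes) and 6 lower (14.3%, against 19.8%). The count of higher members was 1 without the untransfected array of replicate 3, and that of lower members was 3 without the untransfected array of replicate 1. The count of higher members was 3 without the mir-429 array of replicate 1, and 2 without that of replicate 2 or 3 or the untransfected array of replicate 2. IFI44 was at 1.20 ± 0.29 (adjusted p = 0.00534) and IFIT1 at -0.56 or lower (adjusted p = 0.00303).

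Some YAP and TGF-beta response genes rose, while the share of lower members was near that of all genes. Of 38 tested YAP and TGF-beta response genes 11 were higher (28.9%, against 11.7% of all genes) and 5 lower (13.2%, against 11.3%), with a median of 0.09. In control cells 7 were higher (18.4%, against 18.3%) and 13 lower (34.2%, against 19.8%). The count of higher members was 7 without the mir-429 array of replicate 1 or the untransfected array of replicate 1, and that of lower members was 3 without the mir-429 array of replicate 3. ID1 and ID3 encode inhibitors of helix-loop-helix factors. ID1 read 5.84, 5.99 and 5.93 on the untransfected, 7.17, 7.86 and 7.76 on the control and 8.64, 8.75 and 8.48 on the mir-429 arrays. It rose in steps without overlap, at 2.70 ± 0.32 from untransfected (adjusted p = 8.24e-06) and 1.03 ± 0.32 from control (adjusted p = 0.0238). ID3 was 4.17-fold higher than in untransfected cells (2.06 ± 0.15, adjusted p = 2.2e-08). The matricellular THBS1 read 7.20, 6.92 and 7.05 on the untransfected and 9.06, 8.84 and 8.85 on the mir-429 arrays (1.86 ± 0.12, adjusted p = 9.21e-09). SMAD7, a feedback inhibitor of the receptors, was at 1.49 ± 0.13 (adjusted p = 2.91e-07) and in control cells at 0.68 ± 0.13 (adjusted p = 0.000785). PMEPA1, another feedback inhibitor, was at 1.10 ± 0.11 (adjusted p = 1.67e-06) while control cells were at 0.10 ± 0.11 (adjusted p = 0.536). CCN2, a secreted YAP target, fell by 0.57 ± 0.14 (adjusted p = 0.00779) and was at -1.33 ± 0.14 in control cells (adjusted p = 2.99e-06). The receptor TGFBR2 was at 0.57 ± 0.17 (adjusted p = 0.0182) and the ligand TGFB2 at 1.29 ± 0.23 (adjusted p = 0.000412), with control cells at -0.02 ± 0.17 and -0.08 ± 0.23.

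Mitosis genes that passed were lower with 1 exception. Of 70 tested 21 were lower (30.0%, against 11.3% of all genes) and 1 higher (1.43%, against 11.7%), with a median of -0.17. In control cells 34 were lower (48.6%, against 19.8%) and 3 higher (4.29%, against 18.3%), with a median of -0.26. Between mir-429 and control cells 16 were higher (22.9%, against 15%) and 5 lower (7.14%, against 11.6%). KIF14, a kinesin of the midbody, read 10.80, 10.87 and 10.75 on the untransfected, 9.26, 9.75 and 9.08 on the control and 9.75, 9.53 and 9.53 on the mir-429 arrays. Both transfected groups lay below and overlapped each other (-1.20 ± 0.13 in mir-429 cells, adjusted p = 2.95e-06). ASPM, a spindle pole protein, was at -0.87 ± 0.10 (adjusted p = 9.33e-06) and the kinase PLK1 at -0.67 ± 0.20 (adjusted p = 0.0209). The phosphatase CDC25A was the member called higher, at 0.80 ± 0.09 (adjusted p = 3.21e-06). Of 58 tested DNA replication and S phase genes 7 were higher (12.1%, near the 11.7% of all genes) and 1 lower (1.72%, against 11.3%), and 4 were higher without the mir-429 array of replicate 2. E2F2, a transcription factor of S phase entry, was at 0.90 ± 0.15 (adjusted p = 0.000261) and in control cells at 0.09 ± 0.15 (adjusted p = 0.662). Of 29 tested p53 targets 8 were higher (27.6%, against 11.7% of all genes) and 7 lower (24.1%, against 11.3%). The death receptor FAS read 9.07, 9.08 and 9.0 on the untransfected and 10.17, 10.24 and 10.31 on the mir-429 arrays (1.19 ± 0.10, adjusted p = 9.26e-08), the cell cycle inhibitor CDKN1A was at 0.75 ± 0.12 (adjusted p = 0.00022), and the ubiquitin ligase subunit FBXO22 at -1.10 ± 0.12 (adjusted p = 3.21e-06), with another probe set at 0.06.

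**Figure D4:**
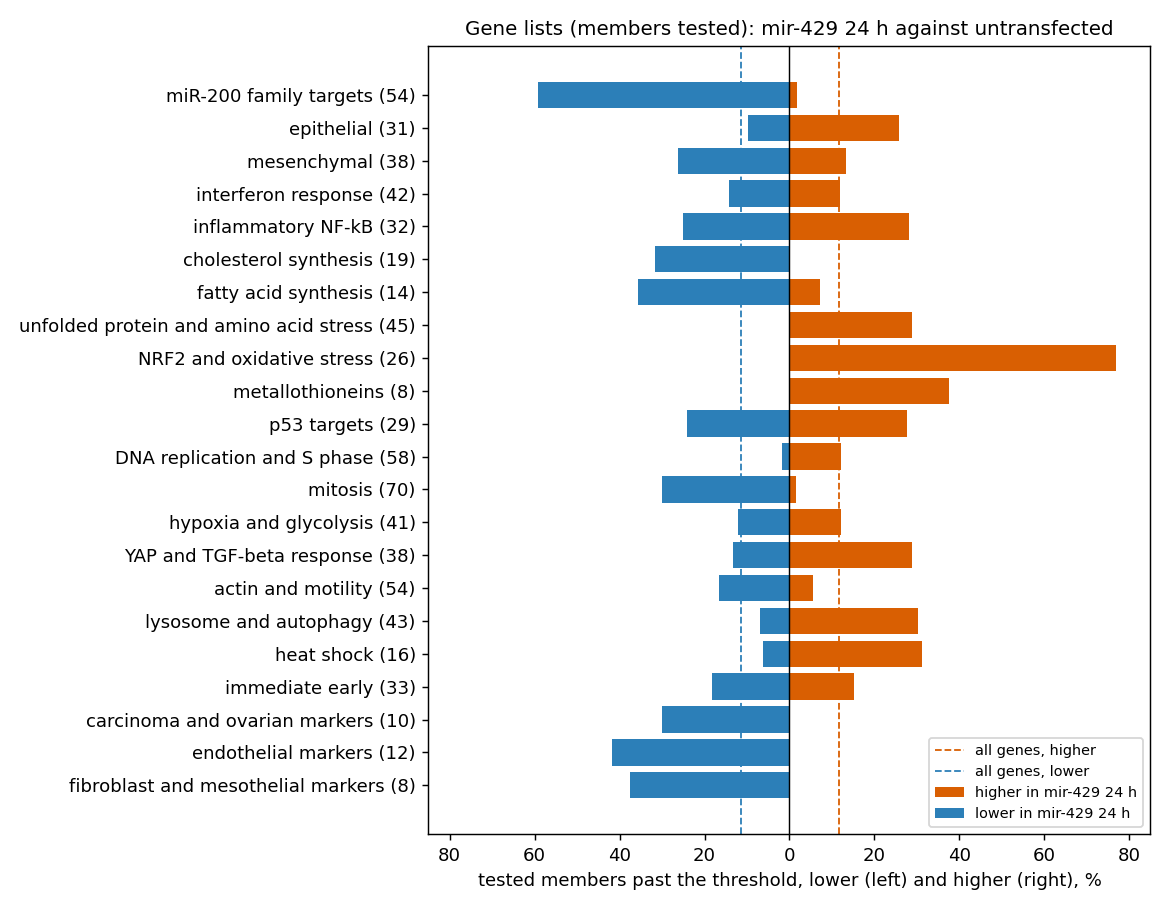
Share of tested members (%, number tested in brackets) that were higher (right) or lower (left) in mir-429 cells at 24 h than in untransfected cells at a limma adjusted p under 0.05, for the lists with at least 8 tested members. Dashed lines give the same shares over all genes, 11.7% higher and 11.3% lower; the miR-200 targets reach 59.3% lower and the NRF2 genes 76.9% higher.

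The 15 largest rises and 15 largest falls, with LOC, KIAA and similar symbols passed over, held genes of several kinds. ZBED2, a zinc finger regulator, read 3.02, 2.52 and 2.88 on the untransfected, 2.18, 2.31 and 2.26 on the control and 6.60, 6.39 and 6.48 on the mir-429 arrays. Both comparison groups were below the array medians, so the rise from untransfected was at least 2.22 (adjusted p = 1.15e-07). ZNF165, a testis zinc finger protein, read 5.02, 4.89 and 4.66 on the untransfected, 4.64, 5.22 and 4.26 on the control and 7.80, 7.81 and 7.82 on the mir-429 arrays. The control values overlapped the untransfected ones, and mir-429 cells were 7.77-fold above untransfected (2.96 ± 0.37, adjusted p = 1.36e-05). MPZL3 and FGD6, a membrane protein of the immunoglobulin family and an exchange factor for CDC42, were at 2.26 ± 0.18 and 2.08 ± 0.17 (adjusted p = 9.26e-08 and 9.26e-08), while in control cells they were at 0.39 ± 0.18 and 0.23 ± 0.17 and did not pass. The probe sets of FGD6 ran from 0.82 to 2.25 in mir-429 cells. Other genes were higher with the control miRNA too. TRIM16, a ubiquitin ligase of the tripartite motif family, read 5.94, 6.17 and 5.99 on the untransfected, 8.35, 8.32 and 8.67 on the control and 8.86, 8.74 and 8.41 on the mir-429 arrays. Its transfected groups overlapped (2.64 ± 0.22 and 2.41 ± 0.22 from untransfected, adjusted p = 1.26e-07 and 6.57e-07). EPAS1, a hypoxia-inducible factor, was at 2.24 ± 0.12 and 1.80 ± 0.12, and its direct difference of 0.44 ± 0.12 passed as well (adjusted p = 0.0117). IGFBP3, which binds insulin-like growth factors, was at 2.15 ± 0.19 and 1.93 ± 0.19, with a direct difference of 0.22 ± 0.19 (adjusted p = 0.433). MMP3, a matrix protease, was higher by at least 2.27 in mir-429 cells (adjusted p = 1.33e-05), and its difference of -0.63 ± 0.33 from control did not pass (adjusted p = 0.176).

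Of the other largest rises, the collagen gene COL8A1 was higher by at least 1.12 (adjusted p = 5.7e-06), with control cells below the array medians as well. SPANXB1, a testis gene with near-identical copies, was higher by at least 2.36 (adjusted p = 7.46e-07), and CAPSL, a calcium-binding protein, by at least 1.87 (adjusted p = 5.43e-05).

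Among the falls, TMEM158, a membrane protein induced by Ras, read 10.27, 10.02 and 10.31 on the untransfected, 9.02, 8.97 and 9.17 on the control and 7.31, 7.49 and 7.36 on the mir-429 arrays. It fell in separate steps (-2.82 ± 0.17 from untransfected, adjusted p = 2.02e-09; -1.67 ± 0.17 from control, adjusted p = 1.98e-06). ZCCHC24, a zinc knuckle protein, was at -2.62 ± 0.19 from untransfected and -2.0 ± 0.19 from control (adjusted p = 2.2e-08 and 7.05e-07), with another probe set at -0.65. CCNG2, an unusual cyclin linked to cell cycle arrest, was at -2.38 ± 0.12 in mir-429 and -1.47 ± 0.12 in control cells (adjusted p = 2e-10 and 1.87e-07). P2RY6, a receptor for UDP, was at -2.49 ± 0.12 and -1.65 ± 0.12 (adjusted p = 1.61e-10 and 6.93e-08). TNFSF15, a cytokine of the TNF family, fell by 2.38 ± 0.19 in mir-429 cells (adjusted p = 1.05e-07), and its direct difference from control was -0.05 ± 0.19 (adjusted p = 0.89). LGR5, a receptor for R-spondins, was at -1.33 or lower (adjusted p = 6.3e-07), HSD17B2, which inactivates sex steroids, at -2.16 or lower (adjusted p = 1.09e-07), and ST8SIA1, a ganglioside synthase, at -2.05 or lower (adjusted p = 2.34e-05).

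**Figure D5:**
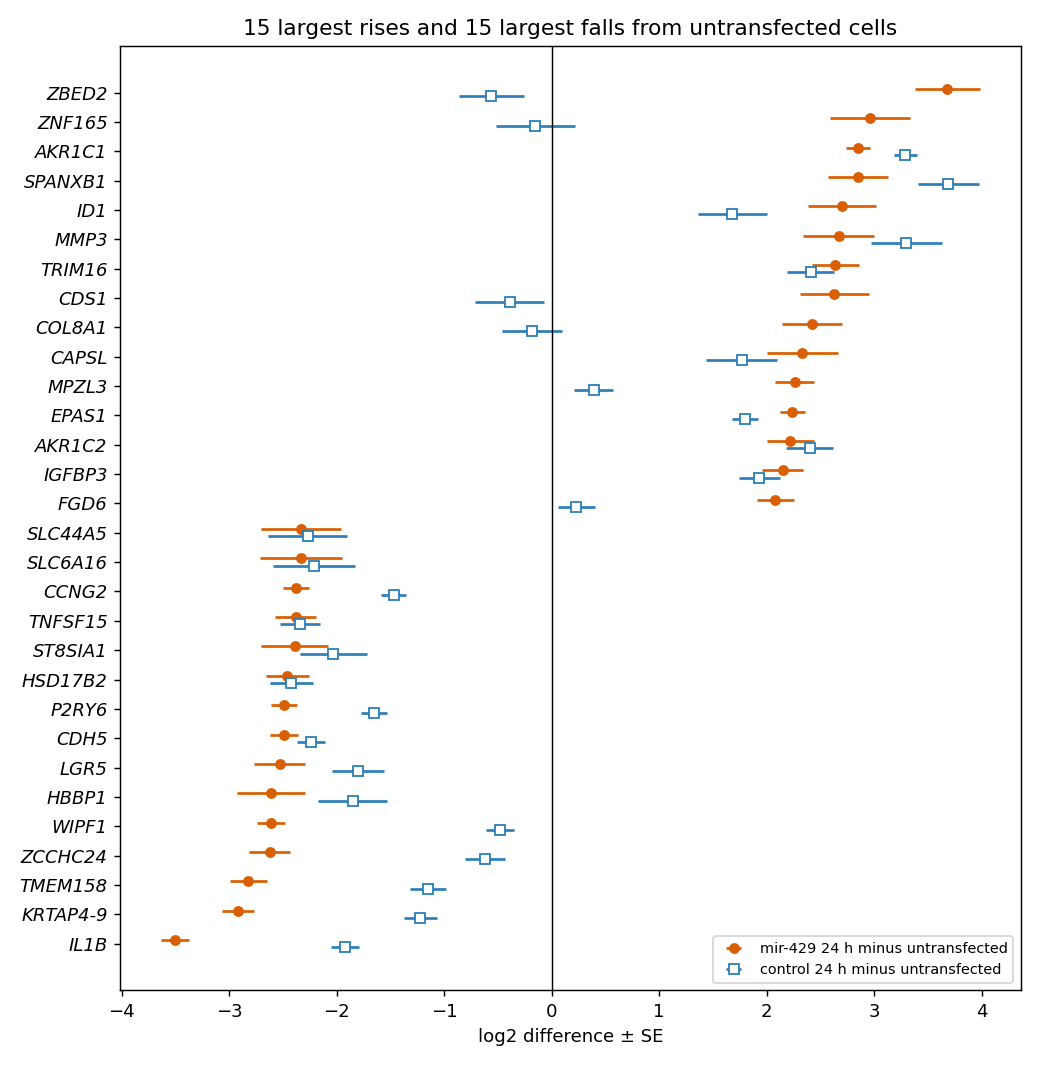
Log2 difference from untransfected cells with its SE for the 15 largest rises and 15 largest falls in mir-429 cells at 24 h (filled circles), with control cells at 24 h beside them (open squares). Genes with LOC, KIAA or similar symbols were passed over. For ZNF165, MPZL3 and FGD6 the squares lie between -0.15 and 0.39 and the circles at 2.08 or above, and for TNFSF15 the symbols nearly coincide. Genes below the array medians in a group, such as ZBED2, CDS1, COL8A1 and HSD17B2, are drawn at their measured difference, which the text gives as a bound.

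Genes chosen for a small difference in 1 of the comparisons show both extremes, and their smallness is a matter of that choice. ALDH3A2, a fatty aldehyde dehydrogenase, read 8.90, 8.81 and 8.75 on the untransfected, 9.98, 9.91 and 10.14 on the control and 9.84, 10.03 and 10.02 on the mir-429 arrays. Mir-429 and control overlapped at 1.14 ± 0.11 and 1.18 ± 0.11 from untransfected (adjusted p = 4.42e-07 and 5.29e-07). TMEM154 was at -1.14 ± 0.14 and -1.15 ± 0.14 in the same way. E2F7, an E2F repressor, read 9.87, 10.23 and 10.18 on the untransfected, 9.21, 9.43 and 8.64 on the control and 10.36, 10.08 and 9.85 on the mir-429 arrays. Here control alone lay lower, so that mir-429 was at 0.00 ± 0.19 from untransfected (adjusted p = 0.995) and at 1.0 ± 0.19 from control (adjusted p = 0.000787). MED16, a Mediator subunit, was the reverse case, at 0.01 ± 0.17 from untransfected and -1.31 ± 0.17 from control (adjusted p = 0.965 and 3.75e-05).

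Mir-429 cells at 144 h differed from those at 24 h in 4205 genes (32.7%), 1671 higher (13.0%) and 2534 lower (19.7%). The share of higher genes among these calls depended on the scaling, at 39.7% with the values as deposited, 48.6% with quantile scaling, 52.4% with cyclic loess and 57.7% with each array centred on its median. Of the 54 miR-200 targets 30 were higher at 144 h than at 24 h (55.6%) and 4 lower, and of the 26 NRF2 genes 18 were lower (69.2%) and 0 higher. Both shifts ran against the 24 h changes, which the use of the same 24 h arrays in both comparisons favours. ZEB1 read 10.51, 10.53 and 10.32 at 144 h, above all 24 h values and below all untransfected values (1.40 ± 0.15 from 24 h, adjusted p = 1.27e-06). ZEB2 read 7.80, 8.15 and 7.58, also between them (1.22 ± 0.18, adjusted p = 5.46e-05). FN1 read 11.46, 11.38 and 11.59, overlapping the untransfected arrays (2.13 ± 0.12, adjusted p = 8.33e-10). AKR1C1 read 7.62, 7.44 and 7.49, slightly above untransfected (-2.56 ± 0.11 from 24 h, adjusted p = 6.47e-11). The epithelial genes did not move together: PATJ read 5.62, 5.57 and 5.87 at 144 h and its difference of -0.04 ± 0.13 from 24 h did not pass (adjusted p = 0.837), MAP7 was at -1.13 ± 0.23 (adjusted p = 0.000942), and ESRP1, at 7.56, 7.06 and 7.17, was higher than at 24 h (0.61 ± 0.13, adjusted p = 0.00159).

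Markers of the labelled cell type and of other cells were read in the same arrays. On the brightest of its 8 probe sets, the ovarian lineage factor PAX8 read 11.31, 10.72 and 11.02 on the untransfected arrays, while MUC16, the antigen CA125, and EPCAM lay below the array medians. PAX8 was at -0.57 ± 0.15 in mir-429 cells (adjusted p = 0.00812), and its probe sets ran from -0.90 to -0.12. It was at -0.40 (adjusted p = 0.0519) without the mir-429 array of replicate 1 and -0.42 (adjusted p = 0.0562) without the untransfected array of replicate 1. Of 16 leukocyte markers with a probe set, 15 lay below the array median on the untransfected and 14 on the mir-429 arrays, PTPRC (CD45) among them. Their mean was 3.0 to 3.08 on the untransfected and 3.09 to 3.10 on the mir-429 arrays. LCP1, an actin bundler, was higher (1.5 ± 0.23, adjusted p = 0.000123). Endothelial markers averaged 5.83 to 5.99 on the untransfected, 5.52 to 5.65 on the control and 5.26 to 5.31 on the mir-429 arrays, and 5 of 12 tested were lower (41.7%, against 11.3% of all genes) and 0 higher. The count was 8 without the 48 h arrays in the fit and 3 with the mean of probe sets. CDH5, the endothelial cadherin, read 9.68, 9.75 and 9.87 on the untransfected, 7.43, 7.70 and 7.45 on the control and 7.46, 7.21 and 7.14 on the mir-429 arrays. Both transfected groups lay below untransfected and overlapped (-2.49 ± 0.13 in mir-429 cells, adjusted p = 3.82e-10). ROBO4 was at -0.86 ± 0.12 (adjusted p = 6.23e-05) and CD93 at -1.24 or lower (adjusted p = 6.43e-07). Of the 16 endothelial markers 5 lay below the array medians in untransfected cells (PECAM1, VWF, TEK, EMCN and CD34) and the rest above, CDH5 and ROBO4 among them. The part of marker levels in the changes of other genes was not tested.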

How the data were processed

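Total RNA of HEY cells was amplified with a 3′-primed kit and hybridised to Affymetrix arrays, 3 per group in 7 groups. The authors deposited log2 expression values; RMA is the method that the submitters' processing notes name, and its version is not given in the sources used here. Of 54675 probe sets, 41097 carried 1 gene symbol in the platform annotation, 1801 several and 11777 none; 99.9% of the single symbols matched a RefSeq gene. A gene took its probe set with the highest mean (19775 genes). Genes above the array median on at least 3 arrays were tested (12879) with limma 3.58.1 in R 4.3.3, 1 mean per group over all 21 arrays, Benjamini-Hochberg adjustment, threshold 0.05, 14 residual degrees of freedom. The fit was tested on simulated data. Where a group mean lay below its array medians, values were raised to the median and the difference printed as a bound. Named genes were the 15 largest rises and falls without overlap, in each list the called members of smallest p (at most 4), and genes closest to untransfected or to control among those changed at least 2-fold in the other comparison. Outside the lists, genes with LOC, LINC, KIAA, FLJ, MGC or open reading frame (orf) symbols were passed over. Other members named with a role in their list, such as JAG1, NFE2L2 or CDH1, were picked after their values were seen. Members and lists were chosen with earlier results of these data known. Alternatives covered scaling, filters, probe set choice, arrays in the fit, array weights, an intensity trend, a 3′ minus 5′ covariate, a replicate block and leaving out single arrays. No scan date or batch is given in the labels. Promoters and miRNAs came from RefSeq (GRCh38.p14). The array table names no genome build, so no gene coordinates are given from it.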

Additional observations from a re-analysis of the deposited data

Results flagged for a closer look

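The genes in this section stood on opposite sides of the untransfected level in 2 groups, and limma tested the difference between those groups for each. For some genes named by rule, every mir-429 array at 24 h lay on one side of all untransfected arrays. Every mir-429 array at 144 h lay on the other side. Most of the named genes were chosen for passing the test at 24 h, and the share over all genes was not counted. The 144 h arrays were not tested against the untransfected ones. At 144 h the mir-429 array of replicate 1 had a median of 3.95, against 4.22 and 4.21 on the others. Genes higher at 24 h and lower at 144 h included secreted or matrix proteins. MMP3 measured -3.48 from 24 h to 144 h, but its untransfected and 144 h means both lay below the array medians, so the fall is -2.41 or lower and no order of those 2 groups is read. IGFBP3 was at 2.15 from untransfected at 24 h and at -0.80 at 144 h, a difference of -2.95 (144 h minus 24 h), and the ubiquitin ligase TRIM16 at 2.64 and -0.90, a difference of -3.54. For NQO1 the values were 1.00 and -0.18 (-1.19), for the zinc exporter SLC30A1 1.37 and -1.03 (-2.40), and for MT1E 0.43 and -0.13 (-0.56). The S phase genes E2F2 and CDC25A were at 0.90 and 0.80 at 24 h and at -0.77 and -0.31 at 144 h, differences of -1.67 and -1.11. The co-chaperones DNAJA1 and DNAJB4 were at 0.50 and 0.40, then at -0.30 and -0.39, differences of -0.81 and -0.79. With the mean of its probe sets the 24 h change of DNAJB4 did not pass.

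Genes lower at 24 h and higher at 144 h included IL1B, at -3.50 and 0.40 (a difference of 3.90), and CDH5, at -2.49 and 0.43 (2.93). The sterol genes INSIG1, SREBF2 and NPC1 were at -1.24, -0.53 and -0.94 at 24 h and at 0.44, 0.53 and 0.58 at 144 h, differences of 1.68, 1.06 and 1.52. The probe sets of NPC1 ran from -0.94 to -0.003 at 24 h, and with the mean of all its probe sets its 24 h change did not pass. The p53 target SESN1 was at -0.79 and 0.12 (0.91), the cyclin CCNB2 at -0.50 and 0.26 (0.77) and the immediate early gene IER5 at -0.50 and 0.35 (0.85). For CCNB2 the probe sets ran from -0.50 to 0.07 at 24 h, and with the mean of all its probe sets its 24 h change did not pass. PAX8 was at -0.57 and 0.41 (0.99) and the endothelial receptor ROBO4 at -0.86 and 0.37 (1.23).

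At 24 h, 3 of the genes named by rule passed the test from untransfected in opposite directions with mir-429 and with control, as DSP and CSF3 above also did. LOX was at -1.62 with mir-429 and 0.47 with control, a direct difference of -2.09. IER5 was at -0.50 and 0.23 (-0.73), and the transcription factor KLF4 at 0.56 and -0.28 (0.84). All of these differences share arrays with the comparisons above.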

How the results depend on the processing

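The count against untransfected cells was 2966 and ran from 2099 to 2645 without 1 array. It was 6059 with limma array weights and lay within 1.5 times of 2966 under the other alternatives listed for it. The control count of 4897 was 2118 with the 3′ minus 5′ signal as a covariate and 7353 with array weights. The direct count of 3425 was 614 with the covariate, 5299 with array weights, and 2148 to 4033 without 1 array. With the replicate number as a block the counts were 2923, 4859, 3367 and, for 144 h minus 24 h, 4126. Same-numbered mir-429 24 h and untransfected arrays correlated at -0.41, -0.16 and -0.14 in their deviations, so the numbers did not pair them, and no pairing is read from the block. Single genes and gene lists were followed through the settings only for mir-429 at 24 h against untransfected cells. There 101 of 121 tested named genes kept their side of the threshold under each of the 18 settings that gave them a value. Those that passed kept their direction too. For genes that did not pass, direction was not compared. The 75th percentile filter gave one for 93 and the mean of probe sets for 115. For single genes and lists, control against untransfected, mir-429 against control and 144 h against 24 h were not checked in this way. LETM2 turned to -0.02 with the mean of probe sets, which brought CDH2 and VIM past the threshold. In that setting 10 others no longer passed: CCNB2, DNAJB4, FADS2, FASN, HSPA4, IFIT5, ME1, NPC1, SQSTM1 and VEGFA. Cyclic loess moved an array's median by up to 0.142 (log2). The cause of these changes was not tested. The 3′ minus 5′ difference between mir-429 and untransfected was -0.28, -0.39 with GAPDH alone (exact permutation p = 0.1, two-sided) and -0.17 with ACTB alone (p = 0.8). With 3 arrays a group, precision is limited by their number, and changes in genes below the array medians are bounds.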

Other observations

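Further lists were read for mir-429 cells at 24 h against untransfected cells. Of 41 tested hypoxia and glycolysis genes 5 were higher (12.2%) and 5 lower (12.2%), close to the shares of 11.7% and 11.3% among all genes. PLOD2, a collagen lysyl hydroxylase, read 11.86, 12.03 and 11.98 on the untransfected and 11.33, 11.33 and 11.22 on the mir-429 arrays, and the angiogenic factor VEGFA read 7.99, 7.88 and 7.90 and 7.32, 7.36 and 7.27. Both lay lower without overlap (-0.67 ± 0.11 and -0.61 ± 0.12, limma adjusted p = 0.000162 and 0.00111), although another probe set of VEGFA was at 0.05. The glucose transporter SLC2A3 was at 0.68 ± 0.13 and the vasodilator peptide ADM at 0.56 ± 0.12 (adjusted p = 0.00119 and 0.00203).

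Of 33 tested immediate early genes 5 were higher (15.2%, against 11.7% of all genes) and 6 lower (18.2%, against 11.3%). The count of higher members was 3 without the mir-429 array of replicate 3 or the untransfected array of replicate 2 or 3, and that of lower members 3 without the mir-429 array of replicate 2. ETV5, a transcription factor downstream of receptor kinases, was at -0.80 ± 0.11 (adjusted p = 5.59e-05), with another probe set at 0.22. Of 16 tested heat shock genes 5 were higher (31.2%, against 11.7%) and 1 lower, and the count of higher members was 2 without the mir-429 array of replicate 3 and 3 without the mir-429 array of replicate 2 or the untransfected array of replicate 1. The co-chaperone DNAJA1 was at 0.50 ± 0.09 (adjusted p = 0.000695). Of 10 tested carcinoma and ovarian markers 3 were lower (30.0%, against 11.3%) and 0 higher, and 1 was lower without the untransfected array of replicate 1. FOLR1, a folate receptor, was at -1.58 or lower (adjusted p = 0.000544). Of 8 tested fibroblast and mesothelial markers 3 were lower (37.5%, against 11.3%) and 0 higher; their mean over 14 markers ran from 4.64 to 4.88 on the untransfected and from 4.48 to 4.63 on the mir-429 arrays.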
